A study of Bos taurus with 14 samples.

Results

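The genes described here are 10 components of the innate sensing of microbes: the Toll-like receptors TLR2, TLR3, TLR4, TLR6, TLR7, TLR8 and TLR9, the lipopolysaccharide co-receptors CD14 and LY96, and the adaptor MYD88. They were chosen by name, as the probes whose gene name or bracketed gene symbol on a custom bovine array is one of these symbols. By these names, each of the 10 genes had exactly 1 probe. The array had 15011 distinct probes, of which 6926 were given a single symbol and together covered 6720 distinct symbols. A further probe, named MD-2 after a synonym of LY96, is also assigned to LY96 by RefSeq. It is not counted among the 10 and was not well above background on any of the 14 arrays.

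The arrays measured peripheral blood neutrophils and liver of Holstein heifers or steers (Bos taurus) that were given β-cryptoxanthin by mouth on day 0. β-Cryptoxanthin is a carotenoid pigment that animals can convert to vitamin A, and the dose was 0.2 mg per kg body weight. The groups were neutrophils on day 7 and on day 0 of animals 25, 26, 32 and 34, and liver on day 7 and on day 0 of animals 58, 61 and 66, with 1 array per animal and day. No animals without the supplement were analysed here, the animals of the 2 tissues differ, and age, sex per animal and the way the liver was sampled are not given in the sources used here.

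Toll-like receptors are membrane proteins that recognise conserved molecules of microbes and start the production of cytokines. TLR2, TLR4 and TLR6 act at the cell surface on bacterial lipoproteins and lipopolysaccharide, while TLR3, TLR7, TLR8 and TLR9 act in endosomes on nucleic acids. Lipopolysaccharide reaches TLR4 by way of the serum protein LBP, CD14 and LY96, and all of these receptors except TLR3 signal through MYD88 to NF-kB and the MAP kinases. In neutrophils this pathway prolongs survival and primes the cells for killing bacteria, and in liver it is best known from Kupffer cells, the resident macrophages, which meet bacterial products arriving from the gut.

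The values are spot intensities of single probes, so the probe sequences of these related genes were compared with each other. The probes of 4 genes are shown as examples (5′ to 3′), those of LY96 and TLR8, which differed strongly between the tissues, of TLR7, the neighbour of TLR8 in the genome, and of TLR9, which was hardly measured.

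LY96: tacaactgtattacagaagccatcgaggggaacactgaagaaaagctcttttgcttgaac
TLR7: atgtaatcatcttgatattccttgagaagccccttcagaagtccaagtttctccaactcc
TLR8: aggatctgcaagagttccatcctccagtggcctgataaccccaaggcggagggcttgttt
TLR9: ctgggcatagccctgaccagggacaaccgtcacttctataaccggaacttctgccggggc

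All 10 probes are 60 bases long. The TLR7 and TLR8 probes share no run longer than 5 bases, and no pair of the 10 probes shares a run longer than 7 bases. With any other probe on the array, the longest shared run was 11 to 13 bases. Only probes were compared with probes, and whether a probe also binds the transcript of a related gene was not tested. The LY96 probe and the MD-2 probe share no run longer than 5 bases, so these 2 probes read different stretches of sequence. The guanine and cytosine content of the 10 probes ranged from 38.3% for TLR2 to 60% for TLR9 and CD14.

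Levels are given as log2 of the processed signal relative to the 75th percentile of the same array, so that 0 is the 75th percentile. They compare samples for 1 probe, never 1 probe with another. A value counts as measured where the scanner software flagged the spot as well above background, which held for 119 of the 140 values of these 10 probes, and no spot was saturated. A probe was tested where it was measured in all samples of 1 or more of the groups compared. By that rule 9 of the 10 genes were measured in some group, and the exception was TLR9.

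By summed signal, the samples carried the markers of their labels. The summed relative signal of 10 neutrophil markers was 653 to 1370 in neutrophils on day 7 and 815 to 981 on day 0, against 3.05 to 3.81 and 4.39 to 10.9 in liver on the same days. For 10 hepatocyte markers it was 0.163 to 0.283 and 0.218 to 0.268 in neutrophils, where 1 to 3 of the 10 were measured, against 596 to 830 and 480 to 686 in liver. Of the 10 neutrophil markers, 9 were higher in neutrophils on day 0 and LTF was lower. Also higher in neutrophils on day 0 were 4 of 4 B cell markers, 6 of 9 T and NK cell markers (2 lower) and the eosinophil marker CCR3. Of all probes tested, 43.5% were higher. The part of these other cells in the receptor differences was not tested. The day 7 array of neutrophil animal 34 stood apart from the other neutrophil arrays, with a median signal of 48.2 against 100.2 to 162.9. Values without animal 34 are given for the MYD88 difference from liver on day 7 and for the neutrophil changes of MYD88, TLR6, TLR7 and TLR8. For the other day 7 differences from liver they are not given. In liver, the day 7 array of animal 58 had 62.7% of spots well above background, against 72.9% to 76.7% on the other liver arrays. MYD88, TLR3 and TLR8 were not well above background on it. Per the file headers, the neutrophil arrays shared 1 slide and the liver arrays a second slide, and day 7 and day 0 held different positions on each, so tissue and slide, and day and position, cannot be told apart.

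Most of these genes stood far higher in neutrophils than in liver, and CD14 stood far lower. On day 0, 7 of the 9 genes tested were higher in neutrophils, 1 was lower and TLR3 did not pass (limma, adjusted p under 0.05). The background was high: 83.1% of the 11494 probes tested passed in this comparison, 43.5% as higher and 39.7% as lower. The median difference was 3.70 on the log2 scale for the 9 genes and 0.12 for all probes tested. On day 7, 6 of 8 genes tested were higher and 1 was lower, against 69.0% of 10195 probes passing, 35.0% as higher and 34.0% as lower, and the median difference was 4.84, against 0.03 for all probes. Since these are bulk samples, fewer cells that carry a transcript and less RNA per cell cannot be told apart.

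**Figure D1:**
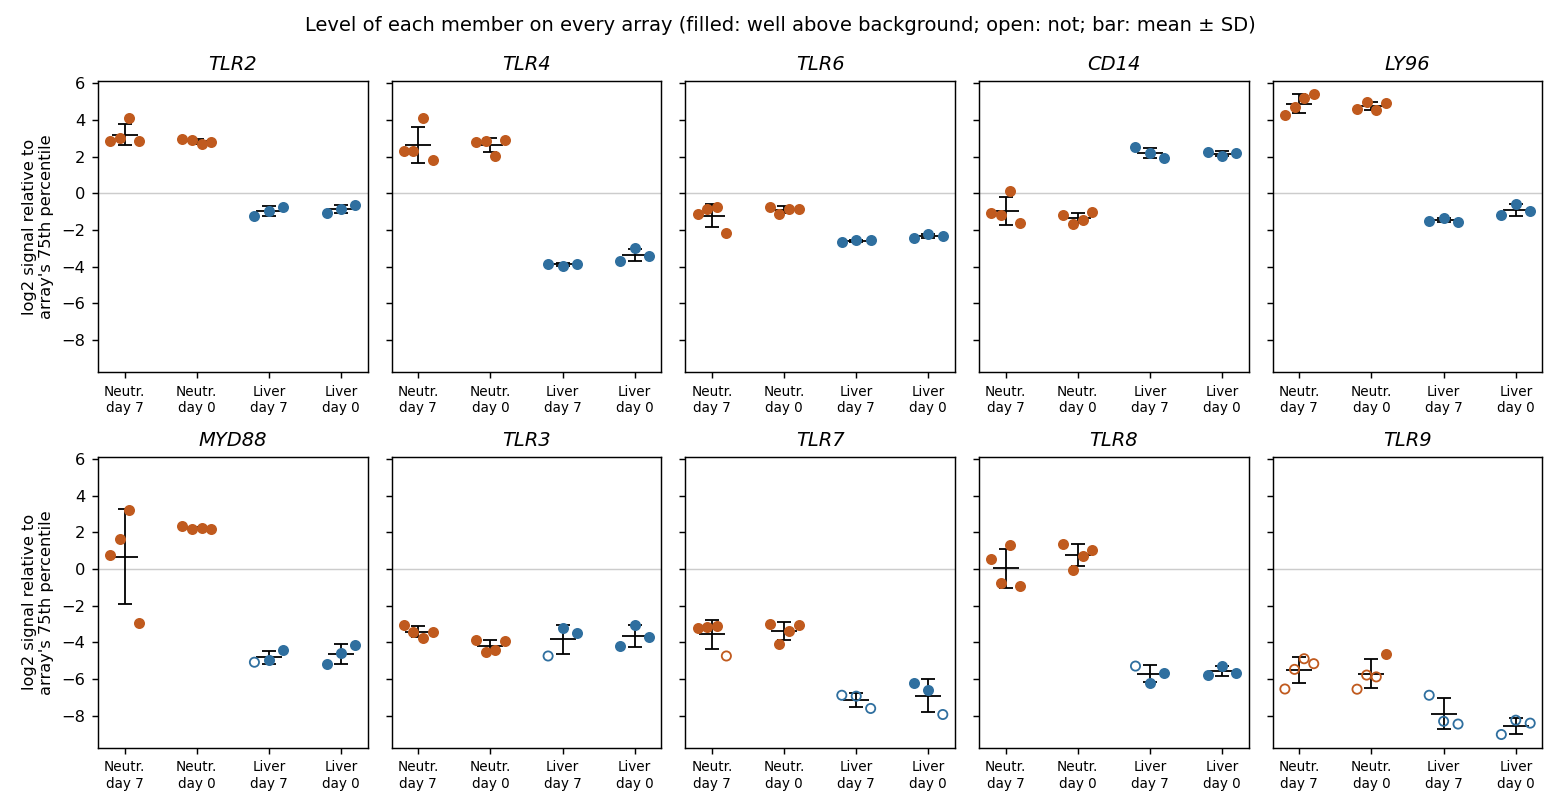
Level of each of the 10 genes on every array (vertical axis: log2 signal relative to the array's 75th percentile; horizontal axis: neutrophils on day 7 and day 0, then liver on day 7 and day 0). Points are arrays, filled where the spot was well above background and open where it was not, and bars show the mean ± SD of 4 neutrophil or 3 liver arrays; CD14 is the gene whose neutrophil arrays all lie below its liver arrays, and animal 34 is the low MYD88 point at -2.92.

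TLR2 recognises bacterial lipoproteins as a pair with another receptor. Its level was 2.83, 3.03, 4.09 and 2.87 in neutrophils on day 7 (animals 25, 26, 32 and 34) and -1.25, -0.96 and -0.72 in liver on day 7 (animals 58, 61 and 66). On day 0 it was 2.98, 2.93, 2.67 and 2.81 in neutrophils and -1.09, -0.83 and -0.64 in liver. Every neutrophil array lay above every liver array, and only animal 32 on day 7 stood away from the other neutrophil arrays. The difference was 4.18 ± 0.37 (SE; limma adjusted p = 1.41e-05) on day 7 and 3.70 ± 0.17 (adjusted p = 2.21e-07) on day 0, the day 0 value being a 13.0-fold difference.

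TLR6, which pairs with TLR2 to bind lipoproteins that carry a pair of fatty acid chains, differed least among the surface receptors. Its neutrophil levels were -1.12, -0.84, -0.74 and -2.15 on day 7 and -0.72, -1.14, -0.84 and -0.83 on day 0. Its liver levels were -2.67, -2.56 and -2.56 on day 7 and -2.41, -2.24 and -2.33 on day 0. Neutrophils lay above liver on both days, with animal 34 on day 7 nearest to the liver arrays. The difference was 1.38 ± 0.37 (adjusted p = 0.00931) on day 7 and 1.45 ± 0.16 (adjusted p = 4.31e-05) on day 0.

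TLR4 is the signalling receptor for lipopolysaccharide, the outer membrane glycolipid of Gram-negative bacteria. It had 2.32, 2.32, 4.08 and 1.79 in neutrophils on day 7, against -3.83, -3.95 and -3.83 in liver. On day 0 it had 2.78, 2.84, 2.03 and 2.89 in neutrophils, against -3.67, -3.0 and -3.41 in liver. The groups were far apart on both days, and animal 32 was the lowest neutrophil sample on day 0 and the highest on day 7. The difference was 6.50 ± 0.51 (adjusted p = 7.52e-06) on day 7 and 6.0 ± 0.27 (adjusted p = 1.82e-07) on day 0, a 63.9-fold difference on day 0.

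LY96, also called MD-2, is the secreted protein that holds the lipid part of lipopolysaccharide in the TLR4 complex. Its neutrophil levels were 4.25, 4.72, 5.17 and 5.40 on day 7 and 4.61, 5.0, 4.53 and 4.92 on day 0. Its liver levels were -1.51, -1.35 and -1.55 on day 7 and -1.19, -0.56 and -0.97 on day 0. As for TLR4, every neutrophil array exceeded every liver array by a wide margin. The difference was 6.36 ± 0.32 (adjusted p = 6.34e-07) on day 7 and 5.67 ± 0.21 (adjusted p = 7.46e-08) on day 0.

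CD14, which passes lipopolysaccharide to TLR4 and LY96 and is carried above all by monocytes and macrophages, ran the other way. It had -1.08, -1.20, 0.11 and -1.64 in neutrophils on day 7, against 2.50, 2.19 and 1.93 in liver. On day 0 it had -1.19, -1.66, -1.46 and -1.02 in neutrophils, against 2.26, 2.01 and 2.19 in liver. No neutrophil array reached any liver array. The difference was -3.16 ± 0.42 (adjusted p = 0.000185) on day 7 and -3.49 ± 0.19 (adjusted p = 6.54e-07) on day 0, where the neutrophil level was 0.0891 times the liver level. The summed signal of 6 Kupffer cell markers was 0.551 to 2.29 in neutrophils on day 7 and 0.474 to 0.980 on day 0, against 58.1 to 63.5 and 52.0 to 61.5 in liver. Of these 6, all 5 tested were lower in neutrophils on day 7, and on day 0 5 were lower and C1QA was higher by 1.95. The 4 general monocyte and macrophage markers summed to 14.9 to 26.0 and 17.2 to 26.1 in neutrophils, against 3.51 to 4.25 and 3.78 to 4.03 in liver, but they were split: on day 0 CD68 (4.64) and VCAN (5.04) were higher in neutrophils, and MRC1 (-5.45) and CD86 (-1.02) were lower. On day 7, 2 of the 3 tested were higher and 1 was lower. The part of these cells in the CD14 and TLR4 differences was not tested.

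**Figure D2:**
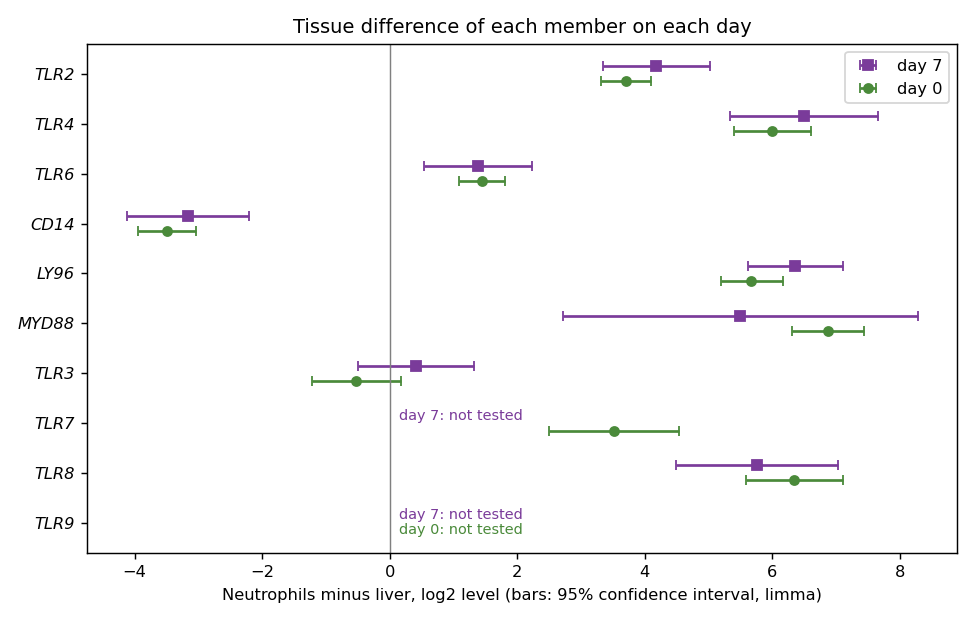
Difference in log2 level between neutrophils and liver (horizontal axis) for each gene on day 7 (squares) and day 0 (circles), with 95% confidence intervals from limma. CD14 lies left of 0 on both days, the TLR3 intervals cross 0, and the MYD88 interval is wide on day 7, from 2.71 to 8.28, against 6.31 to 7.43 on day 0.

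MYD88, the cytoplasmic adaptor that couples the receptors to IRAK kinases, showed the widest spread between neutrophil samples. On day 7 it had 0.76, 1.65, 3.21 and -2.92 in neutrophils, against -5.08, -4.97 and -4.41 in liver, the lowest of which was not well above background. The day 0 levels of MYD88 were 2.33, 2.20, 2.25 and 2.17 in neutrophils, against -5.19, -4.56 and -4.14 in liver. The day 0 neutrophil samples lay within a narrow band (SD 0.07, n = 4), and the day 7 samples were scattered (SD 2.60, n = 4), with animal 34 lowest and animal 32 highest. The difference was 5.49 ± 1.22 (adjusted p = 0.00357) on day 7 and 6.87 ± 0.24 (adjusted p = 6.18e-08) on day 0, and without animal 34 the day 7 difference was 6.69 ± 0.59 (adjusted p = 4.1e-05).

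TLR8, a receptor for single-stranded RNA, had 0.53, -0.74, 1.29 and -0.92 in neutrophils on day 7, against -5.29, -6.19 and -5.65 in liver. The day 0 levels were 1.38, -0.05, 0.71 and 1.05 in neutrophils, against -5.77, -5.26 and -5.67 in liver. Neutrophils lay well above liver on both days, and 1 of the 3 liver values on day 7 was not well above background. The difference was 5.75 ± 0.56 (adjusted p = 2.67e-05) on day 7 and 6.34 ± 0.33 (adjusted p = 4.65e-07) on day 0.

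TLR7, the other receptor for single-stranded RNA, was close to the limit of detection in liver. Its neutrophil levels were -3.24, -3.14, -3.09 and -4.74 on day 7 and -3.01, -4.10, -3.40 and -3.06 on day 0. It was well above background in 3 of 4 neutrophil samples on day 7 and in none of the 3 liver samples, where it had -6.88, -6.93 and -7.60, so the day 7 difference was not tested. On day 0 it had -6.22, -6.57 and -7.93 in liver, measured in 2 of 3 samples, and the difference was 3.51 ± 0.44 (adjusted p = 9.46e-05). Its size differed between settings: with normexp correction together with quantile normalization it was 1.13, and with quantile normalization alone it was 3.42. For TLR8, normexp together with quantile normalization gave 3.67 on day 7 and 4.20 on day 0. All of these values were still past the threshold.

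TLR3, a receptor for double-stranded RNA that signals without MYD88, was the gene tested that did not differ beyond the error between the tissues. It had -3.03, -3.43, -3.77 and -3.42 in neutrophils on day 7, against -4.74, -3.24 and -3.50 in liver. The day 0 values were -3.89, -4.51, -4.41 and -3.90 in neutrophils, against -4.22, -3.05 and -3.70 in liver. The tissues overlapped on both days, and liver animal 58 was the lowest liver sample on each, on day 7 not well above background. The difference was 0.41 ± 0.40 (95% interval -0.50 to 1.32, adjusted p = 0.38) on day 7 and -0.52 ± 0.30 (-1.22 to 0.18, adjusted p = 0.14) on day 0. Without animal 58 the day 0 difference was -0.80 (adjusted p = 0.0359) and passed, and the day 7 difference was -0.05 (adjusted p = 0.918).

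TLR9, a receptor for bacterial DNA, was well above background on 1 of 14 arrays, in neutrophils of animal 34 on day 0 at -4.65. The other neutrophil values were -6.54, -5.47, -4.89 and -5.16 on day 7 and -6.55, -5.78 and -5.88 on day 0, and the liver values were -6.88, -8.30 and -8.45 on day 7 and -9.02, -8.24 and -8.40 on day 0. TLR9 was therefore not tested, and no difference is given.

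The rest of the pathway leaned the same way as the receptors, at counts to be read against the same background. Of 67 other pathway genes on the array, 61 were tested on day 0, of which 47 were higher in neutrophils, 10 were lower and 4 did not pass, with a median of 1.75. On day 7, 37 of 56 were higher and 8 lower, with a median of 1.71. Neither median moved when genes that were not measured in any sample of 1 tissue were set at their bound.

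**Figure D3:**
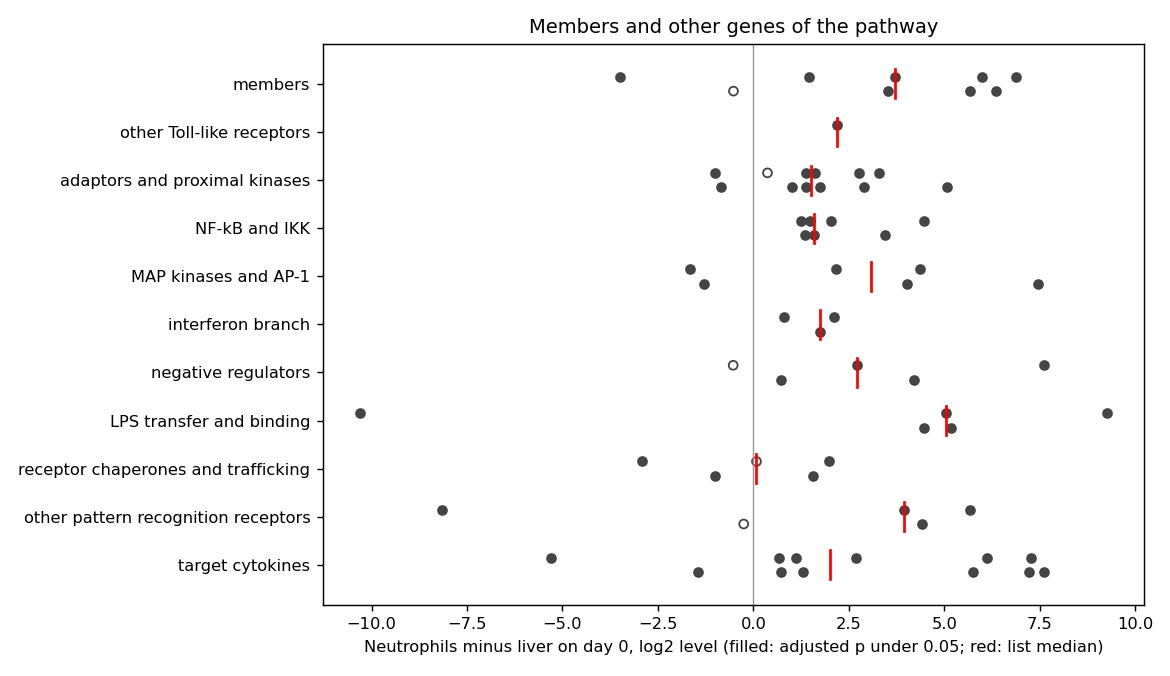
Neutrophils minus liver on day 0 in log2 level (horizontal axis) for the 9 genes tested here and for the other genes of the pathway, by list (vertical axis). Filled points passed at an adjusted p under 0.05, open points did not, and red lines are list medians, such as 3.70 for the 9 genes and 1.58 for NF-kB and IKK.

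The single other Toll-like receptor tested, TLR10, was 3.23 ± 0.35 higher on day 7 and 2.18 ± 0.21 higher on day 0, and TLR5 was not tested. Of 12 adaptors and proximal kinases tested on day 0, 9 were higher and 2 lower, with a median of 1.5. The largest difference was that of BTK, a tyrosine kinase of the pathway, at 5.07 ± 0.18. TIRAP, the bridging adaptor of TLR2 and TLR4, was higher by 3.29 ± 0.27, whereas TICAM1, the adaptor of TLR3, was lower by 0.85 and had a difference of -0.41 (adjusted p = 0.221) on day 7. TICAM2, which links TICAM1 to TLR4, had 0.37 (adjusted p = 0.286) on day 0.

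All 7 genes of the NF-kB and IKK list were higher in neutrophils on day 0, among them NFKBIA, the inhibitor that NF-kB itself induces, at 4.46 ± 0.30, and NFKB1 at 3.45 ± 0.26. Of 6 genes of the MAP kinase and AP-1 list, 4 were higher, including FOS at 7.45 ± 0.80, JUN at 4.38 ± 0.24 and the p38 kinase gene MAPK14 at 4.03 ± 0.26. With a smooth trend along the spot rows removed within each array, the MAPK14 difference was 2.59 (adjusted p = 3.46e-05). Among 5 negative regulators, 4 were higher, including DUSP1, a phosphatase that switches MAP kinases off, at 7.61 ± 0.39, and TNIP1 at 4.22 ± 0.16, and with the row trend removed the DUSP1 difference was 6.03 (adjusted p = 9.63e-07). The 3 tested genes of the interferon branch were all higher, with IRF5 at 2.12 ± 0.21, and on day 7 IRF5 was the 1 of these 3 that passed.

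Of 5 genes for the binding and transfer of lipopolysaccharide, 4 were higher in neutrophils on day 0 and 1 was lower. LBP, the lower one, is the plasma protein that carries lipopolysaccharide to CD14 and is made by hepatocytes. It was below the limit of measurement in all neutrophil samples and was at least 257-fold lower in neutrophils on day 7 and at least 370-fold lower on day 0. The neutrophil granule protein BPI was higher by 4.47 ± 0.45 on day 0, and ITGAM and ITGB2, the chains of the complement receptor of phagocytes, were higher by 5.17 ± 0.24 and 5.03 ± 0.15. CD55, a complement regulator, was higher by 9.26 ± 0.33. Of 5 chaperones and trafficking factors, 2 were higher and 2 lower, and HSP90B1, the chaperone needed to fold Toll-like receptors, was lower by 1.97 on day 7 and had a difference of -2.91 ± 0.23 on day 0.

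Of 5 other pattern recognition receptors, NOD2 (3.94 ± 0.19), DHX58 (4.43 ± 0.29) and PGLYRP1 (at least 13.3-fold) were higher in neutrophils on day 0. CD36, a scavenger receptor that also serves TLR2, was lower, with a difference of -8.15 ± 0.46. Of 12 cytokine and target genes, 10 were higher, with IL1B at 7.62 ± 0.34, CXCL8 at 7.27 ± 0.82, IL1RN at 7.22 ± 0.25 and IL12B at least 49.3-fold. The 2 lower genes were the chemokine genes CCL2 (at least 14.5-fold) and CCL3 (-1.46 ± 0.42), chosen after their values were seen.

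None of the 10 genes passed the test for a change between day 7 and day 0, in neutrophils or in liver. In neutrophils 0 of 9 tested genes passed, where the background was 0% of 9449 probes (0 called, with 1267 at an unadjusted p under 0.05 in limma), so no neutrophil probe of any gene was called. In liver 0 of 8 passed, against a background of 3.98% of 10933 probes, or 435 probes (1953 at an unadjusted p under 0.05). The difference between the changes of both tissues was also tested, and 0 of 8 genes passed, against 1.14% of 8841 probes (101 probes, with 1191 at an unadjusted p under 0.05). Medians over the genes tested were 0.00 in neutrophils and -0.18 in liver, against -0.07 and -0.04 for all probes tested.

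**Figure D4:**
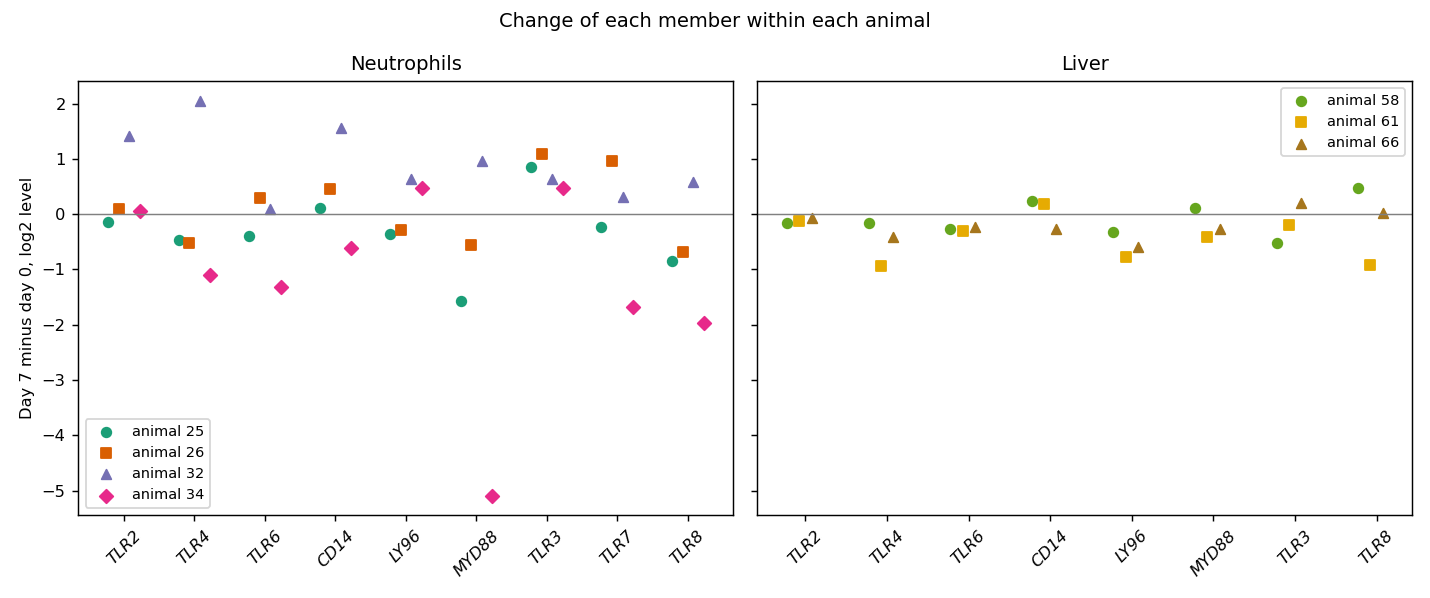
Day 7 minus day 0 in log2 level (vertical axis) for each gene tested (horizontal axis) within each animal, in neutrophils (left) and liver (right). Animal 32 lies above 0 for all 9 genes, animal 34 reaches -5.09 for MYD88, and the liver animals stay between -0.94 and 0.48.

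Within neutrophils the 4 animals went different ways. In animal 32 all 9 tested genes were higher on day 7, where 55.3% of all tested probes were. Before scaling, the signal of animal 32 was higher on day 7 for TLR2, TLR4, CD14 and MYD88, but not for LY96, TLR3, TLR6, TLR7 and TLR8. The 75th percentile of its array was 761.5 on day 7, against 1198.1 on day 0. In animals 25, 26 and 34, the genes higher after scaling numbered 2, 5 and 3 of 9, where 39.9%, 42.0% and 46.2% of all probes were higher. TLR4 is an example, with changes of -0.46, -0.52, 2.05 and -1.10 in animals 25, 26, 32 and 34. Their mean was -0.01 ± 0.51 (adjusted p = 0.997), and without animal 32 it was -0.69 ± 0.25 (adjusted p = 0.244). CD14 changed by 0.11, 0.46, 1.56 and -0.62, with a mean of 0.38 ± 0.37 (adjusted p = 0.641). TLR2 changed by -0.14, 0.09, 1.42 and 0.06, with a mean of 0.36 ± 0.33 (adjusted p = 0.618), and without animal 32 the mean was 0.00.

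MYD88 had the widest range of changes, at -1.57, -0.55, 0.96 and -5.09 in the same animals. In animal 34 only 32 of 9432 probes (0.339%) changed by as much or more in that direction, and in animal 25 only 56 of 9447 (0.593%). In animal 26 it was 13.9% of probes, and in animal 32 the change exceeded that of 89.6% of probes. The changes of all probes were themselves more spread in animal 34 (SD 1.35) than in the other 3 animals (0.57 to 0.77). The mean change was -1.56 ± 0.87 (95% interval -3.62 to 0.49, adjusted p = 0.444), and without animal 34 it was -0.39 ± 0.45 (adjusted p = 0.776).

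TLR3 was the gene whose neutrophil samples did not overlap between the days, with all 4 day 7 values above all 4 day 0 values. Of all 9449 probes tested, 458 (4.85%) were higher without overlap in this way, against 1 of the 9 genes, and 13.4% of all probes had an unadjusted p under 0.05. TLR3 changed by 0.86, 1.08, 0.63 and 0.47, and the mean was 0.76 ± 0.24 (95% interval 0.19 to 1.33; limma unadjusted p = 0.0166, adjusted p = 0.323). Before scaling, the TLR3 signal of animals 25 and 26 was 153.3 and 122.8 on day 7, against 76.58 and 44.47 on day 0. That of animals 32 and 34 did not rise, at 55.63 and 53.04 on day 7 against 56.46 and 74.38. The 75th percentile of their arrays was 761.5 and 568.3 on day 7, against 1198.1 and 1107.0 on day 0. Their positive TLR3 changes were thus present only after scaling. The change of TLR3 in neutrophils minus that in liver was 0.93 ± 0.29 (limma adjusted p = 0.19). In the same samples, the summed signal of 4 B cell markers lay between 6.0 and 10.3 on day 7, against 2.73 and 5.64 on day 0. For 9 T and NK cell markers it lay between 6.75 and 10.9 on day 7, against 3.20 and 6.31 on day 0, also without overlap. Both sums are of scaled signal, so the lower 75th percentiles of animals 32 and 34 on day 7 raise them too. Sums before scaling are not given. Of the 4 B cell markers 3 had a positive change, led by BLK at 1.0, and CR2 had -0.68. Of the 9 T and NK cell markers 7 had a positive change, and LCK had -0.45. None of these markers passed the adjusted test in limma, with 1 and 4 at an unadjusted p under 0.05. CCR3, a marker of eosinophils, lay between 0.509 and 0.747 on day 7, against 1.14 and 3.71 on day 0. The part of these cells in the TLR3 values was not tested.

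The intervals of the remaining genes' mean changes in neutrophils included 0. TLR8 had -0.74 ± 0.41 (adjusted p = 0.444), being lower on day 7 in animals 25, 26 and 34 and higher in animal 32. Without animal 34 it was -0.32 ± 0.33 (adjusted p = 0.739), and without animal 32 it was -1.17 ± 0.34 (adjusted p = 0.222). TLR6 had -0.33 ± 0.33 (adjusted p = 0.642), LY96 had 0.12 ± 0.28 (adjusted p = 0.858) and TLR7 had -0.16 ± 0.43 (adjusted p = 0.875). Leaving out animal 34 moved TLR6 to 0.00 and TLR7 to 0.34. LY96, although the partner of TLR4, was higher on day 7 in animals 32 and 34 and lower in animals 25 and 26. Before scaling, the LY96 signal of animals 32 and 34 was not higher, at 27380 and 23980 on day 7 against 27590 and 33540 on day 0.

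In liver the changes were small and 3 genes reached an unadjusted p under 0.05 in limma. LY96 changed by -0.32, -0.78 and -0.59 in animals 58, 61 and 66, with a mean of -0.56 ± 0.13 (adjusted p = 0.111). TLR4 changed by -0.16, -0.94 and -0.42, with a mean of -0.51 ± 0.18 (adjusted p = 0.249). TLR6 changed by -0.26, -0.31 and -0.23, with a mean of -0.27 ± 0.10 (adjusted p = 0.257). All 3 were lower on day 7 in every liver animal, and their day 7 and day 0 samples did not overlap. Of all 10933 liver probes tested, 869 (7.95%) were lower on day 7 without overlap, and 17.9% had an unadjusted p under 0.05. The summed signal of the 10 neutrophil markers in liver was 3.05 to 3.81 on day 7 against 4.39 to 10.9 on day 0, also without overlap. Of 7 of these markers tested, 0 passed and 4 had an unadjusted p under 0.05 in limma, with changes of -2.11 for LTF and -0.55 for FCGR3A, while 3 had a positive change. LTF itself was lower in neutrophils than in liver on day 0, with a difference of -2.10. The part of neutrophils in the liver changes was not tested.

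The LY96 and TLR4 spots sit near the last rows of the array, where liver probes in general read lower on day 7. LY96 is in row 185 and TLR4 in row 182, and the median change of the 885 tested single-spot liver probes in the last 16 rows was -0.38, against 0.54 for the 811 probes in the first 16 rows. With a smooth trend along the rows removed within each array, the change was 0.09 for LY96, -0.03 for TLR4 and -0.16 for TLR6. In neutrophils the row medians ran from -0.10 to -0.03, with no such trend.

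**Figure D5:**
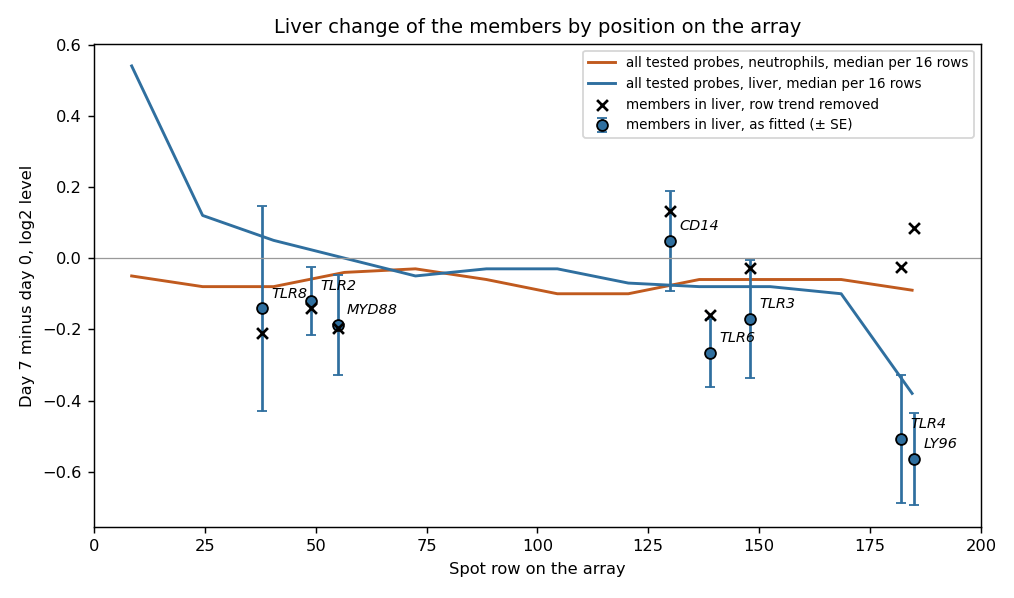
Day 7 minus day 0 in log2 level (vertical axis) against the spot row on the array (horizontal axis). Lines are medians of all tested probes per 16 rows in neutrophils and liver, circles are the 8 genes tested in liver with their SE, and crosses are the same genes after removal of the row trend; LY96 and TLR4 lie beside the dip of the liver line in the last rows, and their crosses lie at 0.09 and -0.03.

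The other liver changes were -0.12 ± 0.10 for TLR2, 0.05 ± 0.14 for CD14, -0.19 ± 0.14 for MYD88, -0.17 ± 0.17 for TLR3 and -0.14 ± 0.29 for TLR8, with adjusted p from 0.572 to 0.893. CD14 was higher on day 7 in animals 58 and 61 and lower in animal 66. Markers of skeletal muscle differed between the liver days, with 8 of 8 higher on day 7 and a summed signal of 4.56 to 19.1 on day 7 against 0.0431 to 0.156 on day 0. Their part in the liver values was not tested. The 6 Kupffer cell markers summed to 58.1 to 63.5 on day 7 against 52.0 to 61.5 on day 0, and none of them passed. No gene of the other pathway lists passed for the day in neutrophils (0 of 57), in liver (0 of 56) or for the difference between them (0 of 52). In the same order, 9, 11 and 7 of them had an unadjusted p under 0.05 in limma. Of all probes tested, 13.4% in neutrophils, 17.9% in liver and 1191 of 8841 for the difference had such a p.

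For CD14, TLR2 and TLR4, genes with the most similar pattern over the 8 neutrophil arrays were looked up among 4107 probes that have a symbol and were measured on all 8. CD14 was most like DELE1, YWHAB and GCH1, with a Pearson r of 0.979, 0.970 and 0.968. TLR2 was most like SESN2, ADM and ABHD1, at 0.973, 0.969 and 0.968. TLR4 was most like SEPTIN4, ABTB2 and FRMD4B, at 0.988, 0.980 and 0.974. The 8 arrays come from 4 animals on 2 days and share animal 32, whose day 7 array was the highest for CD14, TLR2 and TLR4, so these are descriptions of few independent points. Without that array, which was left out after the data had been seen, r was 0.830 to 0.882 for the 3 genes beside CD14, 0.453 to 0.478 for those beside TLR2 and 0.944 to 0.965 for those beside TLR4.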

How the data were processed

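Trizol was used to extract RNA, which was amplified linearly and labelled with Cy3, per the labels. The intensity values are processed signals that the authors deposited from Agilent Feature Extraction. Its version is 9.5 in the submitters' processing notes and 9.5.1.1 in the file headers. Per the file headers, that software subtracted background with a spatial trend and put surrogates in place of low values, so low signals carry little information. The raw intensity columns (mean of the spot, median of its background), which 1 alternative used, and the flags and row numbers are, per the file headers, further output of that software. Deposited log2 values in the authors' deposited table equal log2 of these signals minus a constant near each array's 75th percentile (column medians -3.55 to -2.69, correlation 1.0). A genome build is not stated in these sources, and positions are left out.

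The main value was log2 of the signal over the array's 75th percentile, with repeated spots of a sequence averaged, control and outlier spots (0 to 18 per array) removed and the 0 to 3 saturated spots retained. Between 57.1% and 76.7% of spots per array were well above background, and the number of arrays limits the precision. Names rest on accessions, gene numbers, human similarities or symbols in the files, updated with an NCBI RefSeq gene table (ARS-UCD2.0) that also gave neighbouring genes. All 10 symbols matched it. For a pathway gene with several probes, the brightest probe was used.

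Tests were two-sided, from limma 3.58.1 (R 4.3.3), fitted over all tested probes with Benjamini-Hochberg adjustment, and checked on simulated data. Tissues were compared within each day. Days were compared with the animal as a block, the pairing being that of the labels, where 1 animal gave both samples. Paired deviations from the group means correlated at 0.61, 0.36, 0.03 and 0.24 in neutrophil animals 25, 26, 32 and 34 and at 0.65, 0.31 and 0.61 in liver animals 58, 61 and 66. Errors of differences are standard errors of these fits over 4 neutrophil and 3 liver animals. A gene dim in all samples of a group is given as "at least N-fold": the brighter group's mean over the mean of, per array, the higher of the gene's own signal and the lowest signal among measured probes, all in log2. The genes, pathway lists and marker lists were chosen with earlier results of these data known. Every one of the 10 genes is named, and of each pathway list at most 4 genes per comparison, those with the largest difference among those that passed, otherwise those with the smallest p. TICAM1, TICAM2, BPI, CCL2 and CCL3 are named for their role or as exceptions. Alternatives were no block, normexp (offset 50) with quantile normalization, quantile normalization alone, median scaling, the authors' values, other filters, removal of a row trend (loess span 0.3), 1 fit over all arrays, and each animal left out.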

Additional observations from a re-analysis of the deposited data

Results flagged for a closer look

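Among 30 sets of 4 neutrophil values (levels per day and changes, gene by gene), 4 had a sample set apart by more than Dixon's critical gap, and chance gives about 1 in 20. TLR2 in animal 32 on day 7, at 4.09, lay above the other 3 samples, with a gap of 0.844 of the range. The TLR2 change of the same animal, at 1.42, lay above the other 3 changes (0.847 of the range). TLR4 in animal 32 on day 0, at 2.03, lay below the other 3 samples (0.877). TLR7 in animal 34 on day 7, at -4.74 and not well above background, lay below the other 3 samples (0.907).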

How the results depend on the processing

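Under every alternative run, the genes called numbered 7 to 9 for neutrophils against liver on day 0 (8 in the report), 5 to 9 on day 7 (7), and 0 for the day changes in neutrophils, in liver and for their difference. Leaving out each animal in turn gave 8 to 9 on day 0, 7 to 8 on day 7 and 0 for the day changes. Without the replicate block (the pairing by animal), 0 genes were called in each of the 3 day comparisons, so it changed no call. The mean over a gene's probes was not run, since each gene has 1 probe under its own name, and the MD-2 probe was not averaged with that of LY96. Requiring every sample to be well above background gave no value for MYD88, TLR3 and TLR8 on day 7 or for TLR7. With median scaling, the median of all probes was -0.23 on day 7 and -0.14 on day 0, against 0.03 and 0.12, and TLR3 on day 0 passed at -0.78 (adjusted p = 0.0382). The probes called for the day in liver, 435 over the whole array, were 18 with the row trend removed, 0 without the filter on dim probes, 210 without the block and 0 to 159 with an animal left out. The 101 called for the difference were 4 with the row trend removed, 66 without the filter and 15 to 267 with an animal left out. Some changes near 0 turned sign. In neutrophils, TLR4 was 0.060 with normexp and 0.028 with the row trend removed. In liver, CD14 was -0.025 with normexp and -0.030 with quantile normalization, and LY96 was 0.086 with the row trend removed. With an animal left out, the neutrophil change ran from -0.691 to 0.358 for TLR4, -0.016 to 0.711 for CD14, -0.054 to 0.280 for LY96 and -0.536 to 0.344 for TLR7. The liver change ran from -0.044 to 0.205 for CD14, -0.357 to 0.003 for TLR3 and -0.452 to 0.250 for TLR8. The difference between these changes ran from -0.183 to 0.866 for TLR4, -0.274 to 0.265 for TLR6 and -0.065 to 0.663 for CD14, and the tissue difference of TLR3 on day 7 from -0.046 to 0.700. Pathway genes called numbered 1 with normexp and 2 without animal 61 for the day in liver, and 1 without animal 32 for the difference, in place of 0. Where an alternative changed a result, the cause was not tested. TLR7 in liver and TLR9 lie near the background, which limits what their values show.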
